A study of Rattus norvegicus with 23 samples.

Results

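Antioxidant and glutathione genes are described here in the lungs of elderly rats that had inhaled titanium dioxide (TiO2) nanoparticles. They were a list of 47 genes chosen by name, of which 46 were measured among 23028 genes tested, and Gstm3 had no probe on the array. Total RNA of the accessory lobe was hybridised to single-colour rat expression arrays, with 1 rat per array. The rats were male, of the inbred F344 strain and 19 months old at the start, and the labels name no other agent or genetic change. Exposed rats breathed the TiO2 aerosol at 10 mg/m3 through the nose only, on 5 days per week over 4 weeks, with 6 h of exposure daily, and control rats breathed filtered air. Lungs were taken at the end of the exposure (D0) or 28 days later (D28), which gave 6 control and 5 exposed arrays on D0 and 6 control and 6 exposed arrays on D28. The methods name 6 rats in each group, and the remaining exposed rat of D0 is not analysed here. Values are log2 signals after quantile normalisation, on which a difference of 1 is a 2-fold change, and FC is the fold change between exposed and control rats of the same day.

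Cells take up cystine through the transporter Slc7a11 and build glutathione from it with the ligase made of Gclc and Gclm. Glutathione peroxidases use glutathione to reduce peroxides, glutathione transferases couple it to reactive compounds, and superoxide dismutases, catalase, thioredoxin and the peroxiredoxins remove other oxidants. The transcription factor NRF2, encoded by Nfe2l2 and held back by Keap1, is known to induce many of these genes, with Hmox1 and Nqo1 as its usual readouts. Inhaled particles are known to expose lung cells to oxidants, in part through the phagocytes that engulf them.

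Over both days, the exposed lungs held more RNA of 5 of the genes and less of 5 others. Hmox1, Slc7a11, Srxn1, Sod2 and Prdx5 rose, and the glutathione transferases Gsta3, Gsta4, Gstp1 and Gstk1 and the extracellular dismutase Sod3 fell, by limma with a Benjamini-Hochberg adjusted p below 0.05 over all genes in the mean of both days. These were 10 of 46 genes (21.7%), where 6.55% of all genes tested passed, 3.05% higher and 3.5% lower. At an unadjusted p below 0.05 they were 18 of 46, against 17.2% of all genes. The list was chosen by name with earlier results of these data known, so these shares describe it and do not test it. Of the 10, only Hmox1 also passed the FC limit of 1.5 with probes averaged, which 1.87% of all genes did. With array weights or the slide as a block, 0 of the 46 passed both limits. Slc7a11 has 2 probes, and the 1 above background had an FC of 1.85 when fitted singly. That fit was chosen after the values were seen. The 46 genes did not move as a whole: their median log2 FC was -0.03 over both days, -0.01 on D0 and 0.02 on D28, against -0.0016 over both days in all genes tested. In whole lung, more RNA per cell and more cells of a type cannot be told apart.

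**Figure D1:**
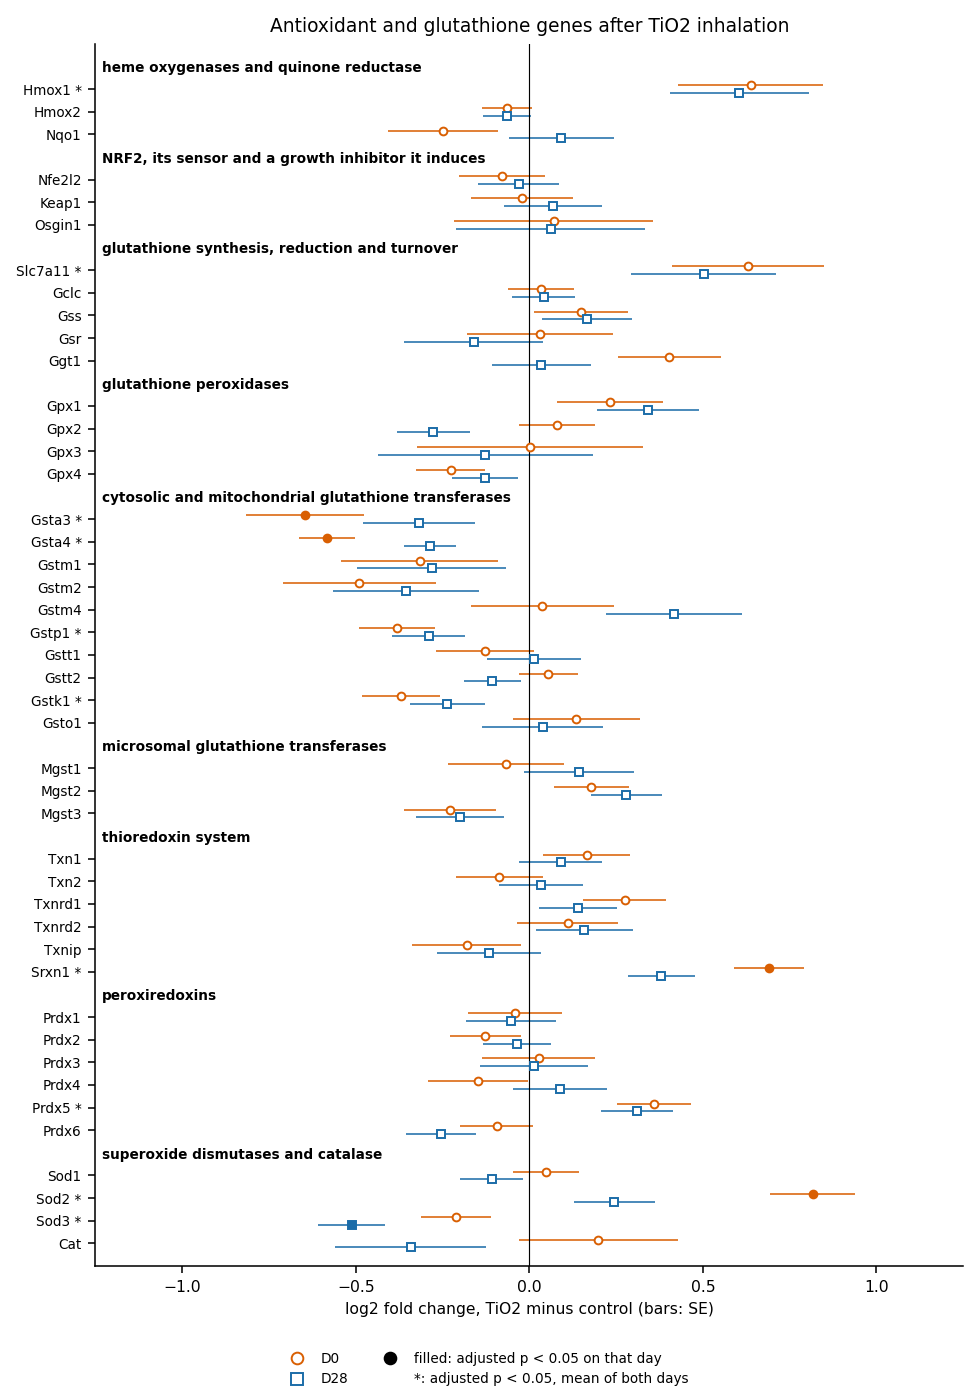
Log2 FC of TiO2 against control rats (x axis) for the 44 genes above background on all 23 arrays, grouped by role. Circles are D0 and squares D28, bars are standard errors, filled symbols passed an adjusted p of 0.05 on that day, and a star marks the 10 genes that passed in the mean of both days. The genes past the test lie on both sides of 0, with Hmox1, Slc7a11, Srxn1, Sod2 and Prdx5 to the right.

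On D0, 4 of the 46 genes passed the adjusted p, with Sod2 and Srxn1 higher and Gsta3 and Gsta4 lower, where 2.85% of all genes passed, 1.51% higher and 1.34% lower. Of these, 3 also passed the FC limit, which 1.78% of all genes did, and Gsta4 lay just under it (FC = 1.498, lower). Slc7a11 did not pass with its 2 probes averaged. Its probe above background did in a limma fit of single probes (FC = 1.92, adjusted p = 0.0321), chosen after the values were seen. On D28, Sod3 alone passed the adjusted p, where 1.32% of all genes did and 0.534% were lower, and 0 of the 46 passed both limits, which 0.756% of all genes did. At an unadjusted p below 0.05, 14 of the 46 differed on each day, with 7 higher and 7 lower on D0 and 8 higher and 6 lower on D28. The share of all genes at that limit was 11.9% on D0 (5.61% higher, 6.34% lower) and 11% on D28 (4.82% higher, 6.19% lower).

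Depth of measurement on an array is its signal over background. The share of spots well above background ranged from 69.5% to 77.9% by array, and 44 of the 46 genes were so on all 23 arrays. Gsta2 was not well above background on any array and Gclm was on 2 of the 23, so no FC is given for either. Arrays of a group correlated between 0.967 and 0.989. The 23 arrays lay on 5 slides, 1 of which held a single control array of D28, and the values within slides are given with the results. Defining markers of lung cells were present: all 10 type II pneumocyte, 8 type I pneumocyte and 10 endothelial markers were well above background on every array.

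Promoters are shown for Slc7a11, Srxn1 and Sod2, which rose, to set their letters beside the motif that NRF2 binds. Hmox1, which also rose, was not matched. RefSeq promoters (build GRCr8, 250 bases before to 50 after the start) were matched for 39 of the 47 genes. The following runs are the 250 bases before the start of each gene, written 5′ to 3′, for Slc7a11 (chr2:136668265-136668514, minus strand), Srxn1 (chr3:161064562-161064811, plus strand) and Sod2 (chr1:50050169-50050418, minus strand). Capitals mark the core of the antioxidant response element (TGACNNNGC on either strand) in Sod2 and the AP-1 site (TGANTCA) in Srxn1, a motif added after the sequences were seen.
Slc7a11: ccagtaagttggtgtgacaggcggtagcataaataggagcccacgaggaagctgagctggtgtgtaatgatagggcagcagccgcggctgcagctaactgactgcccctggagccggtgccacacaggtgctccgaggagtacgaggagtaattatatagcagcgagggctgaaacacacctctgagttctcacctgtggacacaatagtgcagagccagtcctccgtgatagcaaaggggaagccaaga
Srxn1: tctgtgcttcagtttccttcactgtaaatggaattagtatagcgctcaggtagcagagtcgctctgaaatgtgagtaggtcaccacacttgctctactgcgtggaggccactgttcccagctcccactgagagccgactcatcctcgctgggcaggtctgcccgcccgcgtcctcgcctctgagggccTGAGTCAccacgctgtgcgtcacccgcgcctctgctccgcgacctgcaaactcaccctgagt
Sod2: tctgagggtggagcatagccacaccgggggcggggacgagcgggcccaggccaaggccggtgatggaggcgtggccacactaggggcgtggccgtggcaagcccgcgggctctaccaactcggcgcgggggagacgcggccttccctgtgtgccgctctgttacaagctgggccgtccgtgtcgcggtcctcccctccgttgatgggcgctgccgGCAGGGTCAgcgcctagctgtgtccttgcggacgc

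In these stretches Slc7a11 and Srxn1 held no such element core and Sod2 held 1, on the minus strand from 35 bases before the start. Bases further before the start and other forms of the element were not searched. Srxn1 held 2 AP-1 sites, and the second begins 5 bases before the start and runs past the stretch shown. The element core was found in 12 of the 39 genes matched, in 12 of their 44 promoters (27.3%) against 12.1% of all 33469 promoters of the same length. The AP-1 site was found in 5 of the 39 genes, in 5 of their 44 promoters (11.4%) against 7.3% of all promoters. Of the 8 matched genes that passed over both days, 4 held the core, of which Sod2 and Prdx5 had risen and Gstp1 and Gsta3 had fallen. The core of the last 3 stands in capitals within 25 bases of Prdx5 (chr1:213532012-213532036, minus strand), Gstp1 (chr1:210769750-210769774, minus strand) and Gsta3 (chr9:31154964-31154988, plus strand). In Gstp1 the core overlaps an AP-1 site.
Prdx5: tcctgtggGCAGAGTCAtctgcggg
Gstp1: cactgtgtTGACTCAGCatccgggg
Gsta3: ctcaggcaTGACTTCGCattttttc

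Hmox1 encodes the inducible heme oxygenase, which breaks heme down to biliverdin, iron and carbon monoxide. The log2 signals of Hmox1 in the 5 exposed rats of D0 were 11.87, 11.54, 11.38, 12.37 and 12.10. The 6 control rats of D0 lay from 10.85 to 11.38 with a median of 11.34, so that 4 of the 5 exposed rats were above all controls. In the D28 groups the exposed rats lay from 11.04 to 11.69 (median 11.50) and the controls from 10.12 to 11.57 (median 10.81), so that the groups overlapped. The log2 FC of Hmox1 was 0.64 ± 0.21 (SE) on D0 and 0.61 ± 0.20 on D28, and neither passed alone (adjusted p = 0.125 and 0.169). On D0 Hmox1 passed in 2 of 13 other settings, with the slide as a block (adjusted p = 0.0113) and with the deposited table, and its highest adjusted p over the 13 was 0.134. In the mean of both days it was 0.62 ± 0.14 (FC = 1.54, adjusted p = 0.00954). Within the slides that held both groups of a day, the difference was above 0 on 4 of 4 slides on D0 and on 3 of 3 on D28.

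Nqo1, the quinone reductase that is the other usual readout of NRF2, did not pass in any comparison. On D0 the exposed rats had log2 signals of 9.29, 9.61, 9.35, 9.16 and 9.43, and 4 of them lay below all control rats (9.46 to 9.77, median 9.65). The exposed rats of D28 (9.07 to 9.63, median 9.26) lay within the range of the controls (8.87 to 9.88, median 8.97). Its log2 FC was -0.25 ± 0.16 on D0 and 0.09 ± 0.15 on D28 (adjusted p = 0.651 and 0.91), with a 95% interval of -0.31 to 0.15 over both days. For the constitutive heme oxygenase Hmox2 the log2 FC was -0.06 on each day. NRF2 itself (Nfe2l2), its sensor Keap1 and the growth inhibitor Osgin1 had log2 FC between -0.08 and 0.07 on both days, and none of the 3 passed.

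Slc7a11 encodes the light chain of the cystine and glutamate exchanger, the entry point of cystine for glutathione synthesis. The gene has 2 probes, at chr2:139241468-139241527 and chr2:139248397-139248456 (rn4, minus strand). The first was well above background on all 23 arrays and the second on none. The mean of the 2 gave a smaller change than the first probe alone, and why the second was dim was not tested. On the first probe the exposed rats of D0 lay from 6.40 to 7.16 (median 6.91) and did not overlap with the controls (5.01 to 6.18, median 6.06). At D28 they lay from 6.44 to 7.21 (median 6.81) and the controls from 5.09 to 6.57 (median 6.06). Fitted singly among 32365 probes, the first probe had a log2 FC of 0.94 ± 0.23 on D0 (adjusted p = 0.0321), 0.84 ± 0.22 on D28 (adjusted p = 0.08) and 0.89 ± 0.16 over both days (FC = 1.85, adjusted p = 0.00161), a fit chosen after the values were seen.

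**Figure D2:**
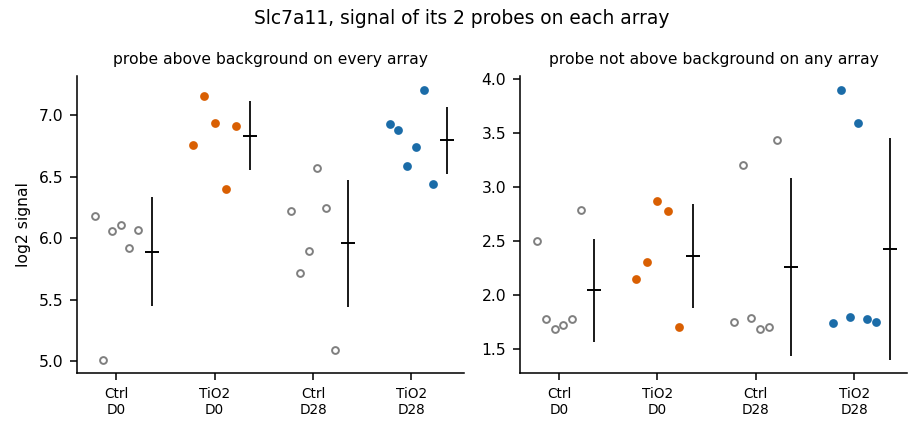
Log2 signal (y axis) of the 2 Slc7a11 probes on each array, with open circles for control and filled circles for exposed rats, and a bar for the group mean and SD. On the probe above background all 5 exposed rats of D0 lie above all control rats of D0, from 6.40 upwards, while the other probe shows no such order.

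With both probes averaged, as for every gene, Slc7a11 was 4.46, 4.73, 4.91, 4.59 and 4.30 in the exposed rats of D0. The controls lay from 3.40 to 4.43 (median 3.89), so that 4 of 5 exposed rats were above all of them. At D28 the exposed rats lay from 4.09 to 5.39 (median 4.41) and the controls from 3.85 to 4.46 (median 4.06). The averaged log2 FC was 0.63 ± 0.22 on D0, 0.50 ± 0.21 on D28 and 0.57 ± 0.15 over both days (adjusted p = 0.158, 0.334 and 0.024). Its value ranged from 0.23 to 0.89 over the other ways of processing, with an adjusted p below 0.05 over both days in each of them.

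The remaining genes of glutathione synthesis and turnover did not pass, although with array weights Ggt1 passed on D0. Gclc, the catalytic subunit of the rate-limiting ligase, had a log2 FC of 0.03 ± 0.10 on D0 and 0.04 ± 0.09 on D28. The glutathione synthetase Gss (0.16 ± 0.09) and the glutathione reductase Gsr (-0.07 ± 0.15) had log2 FC over both days within 2 standard errors of 0. For Ggt1, which splits extracellular glutathione, it was 0.40 ± 0.15 on D0 (adjusted p = 0.2) and 0.04 ± 0.14 on D28, where its 2 probes had opposite signs (0.16 and -0.09).

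Srxn1 encodes sulfiredoxin, which restores peroxiredoxins that were overoxidised by peroxide. Its log2 signals in the exposed rats of D0 were 10.20, 10.08, 10.23, 10.06 and 10.16, and the controls of D0 lay from 9.09 to 9.79 (median 9.46). After 28 days the exposed rats lay from 9.71 to 10.02 (median 9.78) and the controls from 9.21 to 9.59 (median 9.42). The groups did not overlap on either day. Its log2 FC was 0.69 ± 0.10 on D0 (FC = 1.61, adjusted p = 0.000506) and 0.38 ± 0.10 on D28 (FC = 1.30, adjusted p = 0.0537). Srxn1 passed on D28 in 7 of 13 other settings, with an adjusted p from 0.016 with the slide as a block to 0.152 when D28 was fitted alone. The probe lies at chr3:142462543-142462602 (rn4, plus strand).

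Sod2 encodes the manganese superoxide dismutase of the mitochondrial matrix. The exposed rats of D0 had log2 signals of 12.49, 12.42, 12.49, 12.06 and 12.31, all above the controls of D0 (11.33 to 11.73, median 11.50). After 28 days Sod2 lay in exposed rats from 11.62 to 12.40 (median 11.71) and the controls from 11.46 to 11.76 (median 11.60), and only 2 of 6 exposed rats were above all controls. Sod2 had a log2 FC of 0.82 ± 0.12 on D0 (FC = 1.76, adjusted p = 0.000634), the highest of the 46 genes on that day with probes averaged. The Slc7a11 probe above background gave 0.94 on D0. For Sod2 the log2 FC was 0.25 ± 0.12 on D28 (FC = 1.19, adjusted p = 0.448). The effect on D28 was lower than that on D0 by 0.57 ± 0.17, with a 95% interval of the difference from -0.92 to -0.22 and an unadjusted p of 0.00287, but the adjusted p over all genes was 0.681.

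Sod3 encodes the superoxide dismutase that binds to the extracellular matrix, and it moved the other way. Its log2 signals in the exposed rats of D0 were 12.12, 11.96, 12.02, 11.72 and 11.60, and the controls of D0 lay from 11.92 to 12.23 (median 12.09), so that the groups overlapped. On D28 the exposed rats lay from 11.52 to 11.94 (median 11.76) and the controls from 12.11 to 12.51 (median 12.30), with no overlap. Its log2 FC was -0.21 ± 0.10 on D0 (adjusted p = 0.418) and -0.51 ± 0.10 on D28 (FC = 1.42 lower, adjusted p = 0.00917). When D28 was fitted alone, the adjusted p was 0.064. Cytosolic Sod1 and catalase (Cat) did not pass, with log2 FC over both days of -0.03 ± 0.07 and -0.07 ± 0.16.

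Prdx5 encodes a peroxiredoxin of mitochondria, peroxisomes and cytosol that reduces peroxides with thioredoxin. The exposed rats of D0 had log2 signals of 14.59, 14.47, 14.31, 14.43 and 14.44, all above the controls (13.95 to 14.20, median 14.11). The exposed rats of D28 (14.06 to 14.49, median 14.33) overlapped with the controls (13.67 to 14.30, median 14.04). Prdx5 had a log2 FC of 0.36 ± 0.11 on D0 and 0.31 ± 0.10 on D28 (adjusted p = 0.0812 and 0.171), and 0.33 ± 0.07 over both days (FC = 1.26, adjusted p = 0.00692). The other 5 peroxiredoxins did not pass, with log2 FC over both days between -0.17 for Prdx6 and 0.02 for the mitochondrial Prdx3.

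Thioredoxin, its reductases and its inhibitor did not pass either, although with the slide as a block Txnrd1 passed on D0 and Txnip over both days. The cytosolic reductase Txnrd1 had a log2 FC of 0.27 ± 0.12 on D0 and 0.14 ± 0.11 on D28, and on D0 its exposed and control arrays did not overlap. For Txnip, which binds and blocks thioredoxin, the log2 FC over both days was -0.15 ± 0.11. The value of Txn1 is uncertain, since 1 of its 2 probes lies on the opposite strand to the other and had a log2 signal of 7.24 on average against 16.21.

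**Figure D3:**
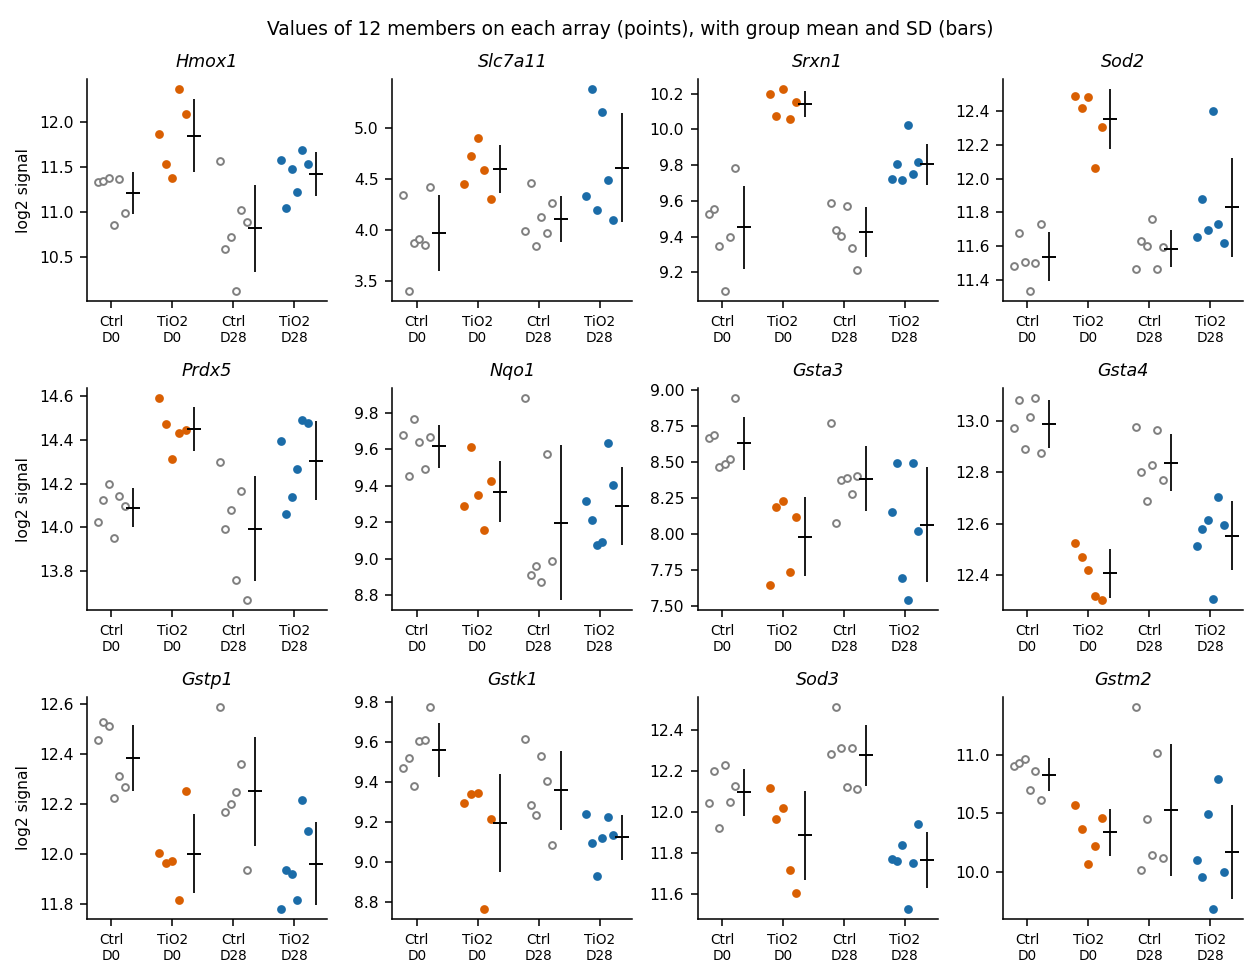
Log2 signal (y axis) of 12 genes on each array, in control (open circles) and exposed rats (filled circles) of D0 and D28, with a bar for the group mean and SD. The exposed rats of D0 lie above all controls for Srxn1, Sod2 and Prdx5 and below all controls for Gsta3, Gsta4, Gstk1 and Gstm2.

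The glutathione transferases formed the group with most genes that fell. Of 11 cytosolic and mitochondrial transferases measured, 4 passed in the mean of both days, all lower, where 3.5% of all genes were called lower. The median log2 FC of the 10 that were above background on all arrays was -0.34 on D0, -0.26 on D28 and -0.30 over both days, against -0.0016 over both days in all genes tested.

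Gsta4, an alpha-class transferase that handles the lipid peroxidation product 4-hydroxynonenal, had log2 signals of 12.52, 12.47, 12.42, 12.32 and 12.30 in the exposed rats of D0. The controls of D0 lay from 12.88 to 13.09 (median 13.00), well clear of them. On D28 the exposed rats lay from 12.31 to 12.71 (median 12.59) and the controls from 12.69 to 12.98 (median 12.81), and 5 of 6 exposed rats were below all controls. Its log2 FC was -0.58 ± 0.08 on D0 (adjusted p = 0.00025), -0.29 ± 0.08 on D28 (adjusted p = 0.0688) and -0.43 ± 0.06 over both days (FC = 1.35 lower, adjusted p = 4.46e-05).

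Gsta3, another alpha-class transferase, was 7.64, 8.19, 8.23, 7.73 and 8.12 in the exposed rats of D0, all below the controls (8.46 to 8.94, median 8.59). The D28 values lay in exposed rats from 7.54 to 8.49 (median 8.08) and the controls from 8.07 to 8.77 (median 8.38). The log2 FC of Gsta3 was -0.65 ± 0.17 on D0 (FC = 1.56 lower, adjusted p = 0.0406), -0.32 ± 0.16 on D28 (adjusted p = 0.498) and -0.48 ± 0.12 over both days (adjusted p = 0.0129). Its call on D0 was close to the limit, since it held in 12 of the 23 fits that left out 1 array, with an adjusted p up to 0.12 in the others, and was lost with the replicate number as a block (adjusted p = 0.077). Its 2 probes, at chr9:20027828-20027887 and chr9:20031594-20031653 (rn4, plus strand), gave -0.59 and -0.71 on D0.

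Gstp1, the pi-class transferase, was 12.01, 11.97, 11.97, 11.82 and 12.25 in the exposed rats of D0, and the controls lay from 12.23 to 12.53 (median 12.39). On D28 the exposed rats lay from 11.78 to 12.22 (median 11.93) and the controls from 11.94 to 12.59 (median 12.22). Exposed and control rats overlapped on both days. Its log2 FC was -0.38 ± 0.11 on D0, -0.29 ± 0.10 on D28 and -0.34 ± 0.08 over both days (FC = 1.26 lower, adjusted p = 0.0668, 0.235 and 0.00793).

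Gstk1, a transferase of mitochondria and peroxisomes, was 9.30, 9.34, 9.35, 8.76 and 9.22 in the exposed rats of D0, all below the controls (9.38 to 9.78, median 9.57). On D28 the exposed rats (8.93 to 9.24, median 9.13) overlapped with the controls (9.08 to 9.62, median 9.34). Its log2 FC was -0.37 ± 0.11 on D0, -0.24 ± 0.11 on D28 and -0.30 ± 0.08 over both days (FC = 1.23 lower, adjusted p = 0.0896, 0.408 and 0.0195).

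The mu-class transferases Gstm1, Gstm2 and Gstm4 did not pass in the main fit. Gstm2 did over both days with array weights, the slide as a block or the replicate number as a block, and on D0 fitted alone. Gstm2 was 10.57, 10.37, 10.06, 10.22 and 10.46 in the exposed rats of D0, all below the controls (10.61 to 10.96, median 10.88), whereas on D28 exposed rats (9.68 to 10.79, median 10.05) and controls (10.02 to 11.41, median 10.30) overlapped. The log2 FC of Gstm2 over both days was -0.42 ± 0.15 (adjusted p = 0.115). Gstm1 was 10.33, 10.21, 10.02, 10.06 and 10.46 in the exposed rats of D0 against 10.25 to 10.69 (median 10.61) in the controls. On D28 it lay from 9.42 to 10.62 (median 9.87) in exposed rats and from 9.60 to 11.06 (median 9.98) in controls, and its log2 FC over both days was -0.30 ± 0.16 (adjusted p = 0.346).

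Gstm4 had log2 signals of 8.07, 8.05, 7.72, 7.97 and 8.59 in the exposed rats of D0 against 7.61 to 8.25 (median 8.11) in the controls. On D28 it lay from 7.69 to 8.31 (median 8.08) in exposed rats and from 6.74 to 8.30 (median 7.67) in controls, and its log2 FC over both days was 0.23 ± 0.14 (adjusted p = 0.482). The theta-class Gstt1 and Gstt2 and the omega-class Gsto1 had log2 FC over both days between -0.06 and 0.09. None of the 59 probes of the 46 genes shared a run of 20 bases with a probe of another named gene, while matches to transcripts of related genes outside the probes were not tested.

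Of the membrane-bound transferases, Mgst2, which also makes leukotriene C4, was 12.29, 12.09, 12.08, 12.15 and 12.16 in the exposed rats of D0 against 11.79 to 12.23 (median 11.98) in the controls. On D28 it lay from 11.81 to 12.29 (median 12.04) in exposed rats and from 11.44 to 12.09 (median 11.78) in controls. Its log2 FC over both days was 0.23 ± 0.07 with an adjusted p of 0.0716, and it passed with 5 of the 12 other ways of processing that kept all arrays of both days. Mgst1 (0.04 ± 0.11) and Mgst3 (-0.21 ± 0.09) did not pass.

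Gpx1, the main cytosolic glutathione peroxidase, was 15.22, 15.07, 14.98, 15.19 and 15.02 in the exposed rats of D0 against 14.13 to 15.11 (median 14.97) in the controls. On D28 it lay from 14.87 to 15.24 (median 14.98) in exposed rats and from 14.31 to 15.05 (median 14.68) in controls. The log2 FC of Gpx1 over both days was 0.29 ± 0.11 (adjusted p = 0.125). Its value passed only with the slide as a block, and the lowest control of D0 stood apart from the rest. The epithelial Gpx2 had a log2 FC of 0.08 ± 0.11 on D0 and -0.28 ± 0.10 on D28, the secreted Gpx3 0.00 ± 0.33 and -0.13 ± 0.31, and Gpx4, which reduces lipid peroxides in membranes, -0.23 ± 0.10 and -0.13 ± 0.09, and none passed.

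On D0, exposed and control arrays did not overlap for 8 of the 46 genes, 4 of them higher in exposed rats (Prdx5, Sod2, Srxn1 and Txnrd1) and 4 lower (Gsta3, Gsta4, Gstk1 and Gstm2). The share of all genes without overlap on D0 was 4.31%, with 1.94% higher and 2.37% lower. On D28 the groups did not overlap for Srxn1 and Sod3 alone, where 1.22% of all genes did not overlap, 0.677% higher and 0.543% lower. The difference between the effects of D28 and D0 passed for 0 of the 46 genes with limma, where 7 of all genes (0.0304%) passed. At an unadjusted p below 0.05 it differed for 5 of the 46, against 3.44% of all genes. Sod2, Srxn1, Sod3 and Gpx2 had a lower log2 FC on D28 (1.89% of all genes) and Gsta4 a higher one (1.55%). No second tool was run.

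Arrays that shared a slide were compared for the 10 genes. The 10 were picked on these same arrays, so their agreement in sign within slides is not separate evidence. On D0, slides 1 and 5 each held 1 exposed and 1 control array. On D0 each of the 10 had the same sign on all 4 slides that held both groups. On D28, where 3 slides did, Hmox1, Slc7a11, Srxn1, Sod2, Prdx5, Gsta4 and Sod3 had the same sign on all 3. Gsta3 (0.09), Gstp1 (0.00) and Gstk1 (0.01) did not differ downwards on slide 5, which held 1 exposed and 1 control array of D28. In the fit with the slide as a block, 13 genes passed over both days, the same 10 and Gpx1, Gstm2 and Txnip. Over all 23028 genes tested, 2397 passed in that fit, against 1509 without the block.

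**Figure D4:**
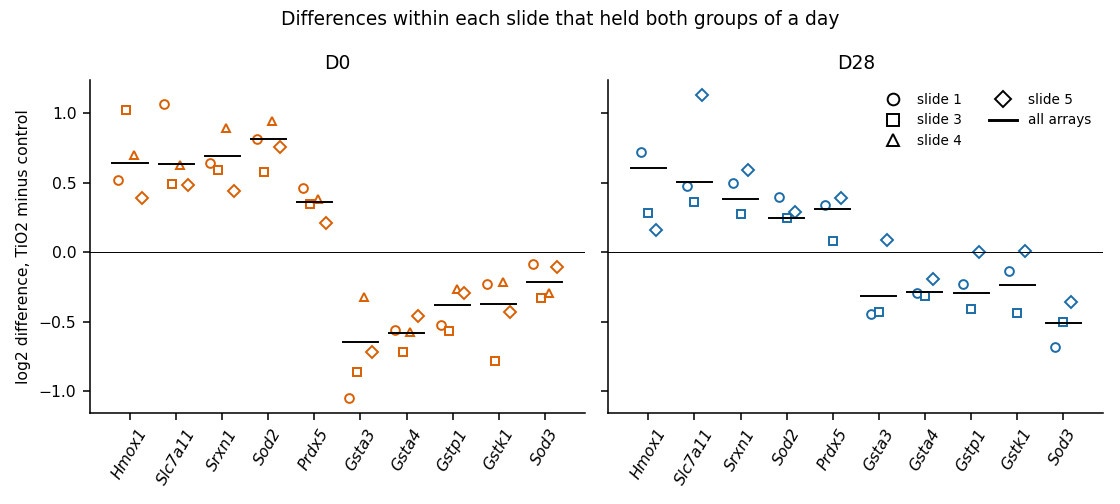
Log2 difference between exposed and control arrays (y axis) within each slide that held both groups of D0 (left) or D28 (right), for the 10 genes that passed in the mean of both days. Symbols are slides and the line is the log2 FC from all arrays. All D0 symbols of Sod2 lie between 0.57 and 0.94, and those of Gsta4 between -0.72 and -0.46.

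The control rats of the 2 days were compared as the background of time. No gene of the 46 passed between control rats of D28 and of D0, where 0.877% of all genes did. At an unadjusted p below 0.05, 7 of the 46 differed, against 13.3% of all genes (6.52% higher, 6.76% lower), and 0 genes had groups without overlap, against 1.62%. Osgin1 (-0.82 ± 0.27), Mgst1 (-0.47 ± 0.16), Nqo1 (-0.42 ± 0.15), Prdx4 (-0.31 ± 0.14), Gclc (-0.29 ± 0.09) and Nfe2l2 (-0.25 ± 0.12) had lower values on D28, as log2 differences, and Gstt2 (0.23 ± 0.08) a higher one. Without control array 1 of D28, in which Nqo1 was highest (9.88), Gclc and Nqo1 passed. Clock genes differed between these groups: 9 of 10 genes that rise with Nr1d1 had lower values in control rats of D28, of which 7 passed the adjusted p (0.304% of all genes passed as lower), and 5 of 5 genes that rise with Arntl had higher values, of which 3 passed (0.573% of all genes), and their part in the differences named here was not tested.

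Other genes of the same pathways were read from 4 lists, chosen by name with earlier results of these data known. Of 27 NRF2 targets outside the 46 genes, 3 passed the adjusted p as higher and 3 as lower in the mean of both days, where 3.05% of all genes were called higher and 3.5% lower. Of the 27, 15 had a log2 FC above 0 and 12 below 0. The aldo-keto reductase Akr1b8 (0.32 ± 0.06), the autophagy receptor Sqstm1 (0.24 ± 0.06) and the transketolase Tkt (0.21 ± 0.06) rose. Akr7a3 (-0.40 ± 0.11), Pir (-0.30 ± 0.08) and the aldehyde dehydrogenase Aldh3a1 (-0.27 ± 0.08) fell. Of 29 other glutathione enzymes, Gstm7, a mu-class transferase, fell (-0.55 ± 0.13) and none rose. Of 18 other thioredoxin-like, repair and scavenging genes, Txnrd3 rose (0.66 ± 0.18) and none fell. Of 9 partners, repressors and relatives of NRF2 none passed. At an unadjusted p below 0.05, 0 of the 9 were higher and 3 lower, where 7.54% and 9.69% of all genes were.

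Markers of several cell types moved with the exposure, and their part in the changes above was not tested. Of 12 macrophage markers, 3 passed as higher on D0 and 2 on D28, where 1.51% and 0.782% of all genes did. Of the 12, 11 were above background on all arrays. A log2 FC above 0 was seen for 10 of the 12 on D0 and 9 on D28. Their summed signal lay from 13304 to 16869 in controls and from 21101 to 25935 in exposed rats of D0, and from 13142 to 15451 and from 16448 to 19323 on D28. These sums, which the brightest markers dominate, did not overlap on either day. The mean log2 signal of the 12 markers did not overlap on D0 (8.28 to 8.54 in controls, 8.72 to 9.02 in exposed rats) but did on D28 (8.07 to 8.61 and 8.48 to 8.79). Over both days the 12 markers had a median log2 FC of 0.25 and a range from -0.17 to 1.07. Of the 12, 3 were below 0 and 4 were called higher, where 3.05% of all genes were.

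Of 10 markers of ciliated airway cells, 3 passed as lower in the mean of both days, where 3.5% of all genes did. All 10 had a log2 FC below 0 on both days, with medians of -0.28 and -0.36. Their summed signal lay from 51085 to 70191 in controls and from 41005 to 56613 in exposed rats of D0, and from 54336 to 73284 and from 44299 to 56895 on D28. All 8 markers of type I pneumocytes had a log2 FC below 0 on both days (medians -0.29 and -0.24), and their summed signal lay from 249068 to 287786 against 193961 to 242376 on D0 and from 249380 to 307984 against 213895 to 266297 on D28. Endothelial markers had medians of -0.25 and -0.21, with 10 of 10 below 0 on D0 and 9 of 10 on D28, and smooth muscle markers -0.29 and -0.10. Over both days 3 of 8 type I, 3 of 10 endothelial and 2 of 8 smooth muscle markers passed as lower, against the same 3.5%.

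Type II pneumocyte markers had medians of 0.20 and 0.09, and 3 of 10 passed as higher over both days, where 3.05% of all genes did. Red blood cell (-0.40 and -0.44) and cardiac and skeletal muscle markers (-0.47 and -0.35) were lower. Of these, 4 of 9 and 5 of 9 passed as lower over both days, where 3.5% of all genes did. Among 11 neutrophil markers (medians 0.08 and -0.10), Lcn2 and Ncf1 passed as higher on D0, where 1.51% of all genes did, and none passed on D28. Over both days 2 neutrophil markers passed as higher and Ngp as lower, where 3.05% and 3.5% of all genes did. T cell markers had medians of 0.08 and 0.11, B cell and plasma cell markers -0.02 and 0.11, and secretory airway markers -0.16 and -0.17. The 7 secretory airway markers measured ranged from -0.72 to 2.30 on D0 and from -0.91 to 1.21 on D28. Of the 7, 1 passed as higher on each day, where 1.51% and 0.782% of all genes did. Over both days 1 passed as higher and 1 as lower, where 3.05% and 3.5% of all genes did. Clock genes moved with the exposure in opposite directions on the 2 days, with a median of -0.58 on D0 and 0.77 on D28 for genes that rise with Nr1d1 and of 0.42 and -0.87 for genes that rise with Arntl, and their part was not tested.

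**Figure D5:**
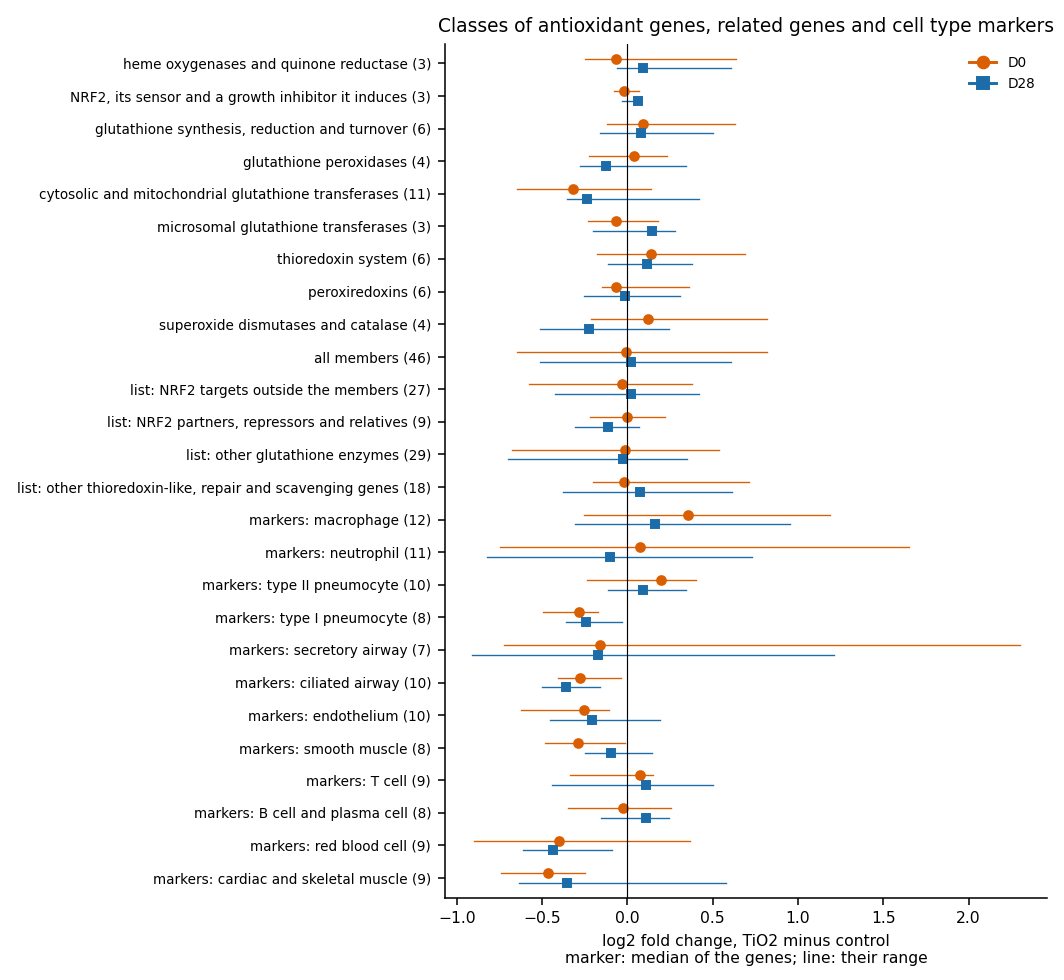
Log2 FC of TiO2 against control rats (x axis) for the classes of antioxidant and glutathione genes, 4 lists of related genes and 12 lists of cell type markers, with the number of genes measured in brackets. Markers are the median of the genes and lines their range, circles for D0 and squares for D28. The cytosolic and mitochondrial transferases and the ciliated, type I, endothelial and muscle markers have medians below 0 on both days, and the macrophage markers above 0.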

How the data were processed

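The deposited scanner files held spot intensity values, the processed signal made by the authors with Feature Extraction (version 11.0.1.1 for 22 arrays, 12.0.1.1 for the other), and the deposited series table held linear intensity values, with equal columns once sorted (quantile-normalised, each with a median of 144.7), and was used as an alternative. From the scanner files, control spots and outlier flags were left out, log2 was taken, and a probe was kept if at least 5 arrays exceeded the 95th percentile of their negative controls (40417 of 45598). Values were quantile-normalised and averaged over spots, then over the probes of a gene. limma 3.58.1 (R 4.3.3) was fitted to 23028 genes with 4 group means, with Benjamini-Hochberg adjustment and a threshold of 0.05, and an FC limit of 1.5 where stated. The number of arrays limits the precision. Each array is 1 rat by the labels. Groups came from the sample titles, since another label of the 6 exposed D28 arrays gave day 0. The 47 genes and all lists were chosen by name with earlier results of these data known. The genes described were the markers, those past the adjusted p on a day or over both days and the 5 next by absolute log2 FC over both days. The scripts were tested on simulated data. Alternatives covered scaling, background, filters, probes, samples, weights and blocks.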

Additional observations from a re-analysis of the deposited data

Results flagged for a closer look

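In groups of 5 or 6 arrays, a single array stood apart from its group in 15 of 184 gene and group combinations (8.2%), by Dixon's 95% critical value, where chance gives about 1 in 20. The values are log2 signals, each with the nearest other array of its group. On control array 6 of D0, Gpx1 was 14.13 (nearest 14.94), Gpx3 was 8.96 (nearest 10.31) and Gstm4 was 7.61 (nearest 8.05). On exposed array 4 of D28, Gpx2 was 14.74 (nearest 14.22), Srxn1 was 10.02 (nearest 9.82) and Sod2 was 12.40 (nearest 11.88).

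Among exposed arrays of D0, Gstk1 was 8.76 on array 4 (nearest 9.22), Prdx6 was 15.40 on array 1 (nearest 15.03), and array 3 had Gsr at 8.31 (nearest 7.76) and Txnrd2 at 7.02 (nearest 7.33). Among control arrays of D0, array 4 had Ggt1 at 6.59 (nearest 6.93) and Txnrd1 at 7.23 (nearest 7.41). Gclm was 2.21 on control array 5 of D0 (nearest 3.35), and Gsta2 was 2.43 on exposed array 2 of D0 (nearest 1.64) and 2.60 on control array 6 of D28 (nearest 1.94), all at signals not well above background.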

How the results depend on the processing

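The 10 genes past the adjusted p over both days stayed past it in the 12 other settings that kept both days and in all 23 fits without 1 array. The D0 count of 4 was 7 with the deposited table, 8 with only probes well above background, 8 with array weights and 7 with the slide as a block, and the count past both limits was 5 rather than 3 with the deposited table. Over all genes on D0, the count of 657 was 788, 978 (of 17039 tested), 1373 and 1235 in the same order. Past both limits it was 298 rather than 411 with the deposited table. The D28 count of 1 was 2 with cyclic loess, 3 with normexp, 3 with the deposited table, 4 with only probes well above background, 2 with outlier spots kept, 3 with a trend and robust estimation, 2 with the slide as a block and 0 with only the arrays of that day. Over all genes on D28, the count of 303 was 326, 425, 374, 478 (of 17039), 320, 394, 635 and 68 (of 21647) in the same order. The D28 count past both limits was 1 rather than 0 with only probes well above background. Over both days the count past both limits was 1, and 2 with 75th percentile scaling, cyclic loess, probes well above background or the highest probe, and 0 with array weights or the slide as a block. Between control rats of the 2 days the count of 0 was 1 with the highest probe (Gstt2) and 1 with the slide as a block (Txnip). At an unadjusted p the counts were 14 on D0, 14 on D28, 18 over both days, 5 for the difference and 7 between controls. The cause of these shifts was not tested.

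Without 1 array each, the counts ranged from 3 to 5 on D0 and from 2 to 4 past both limits, from 1 to 3 on D28 and from 0 to 1 past both limits, from 10 to 11 over both days and from 0 to 2 past both limits, and from 0 to 2 between controls. The D28 count was 3 without control array 1 of D28 and 2 without control array 4 or 6 of D0. Over both days no gene passed both limits without exposed array 4 of D0 or control array 4 of D28. The log2 FC of Gstm4 on D0 (0.04) was -0.024 with the deposited table and from -0.091 to 0.13 without 1 array. Replicate numbers were not taken as pairs. Same-numbered deviations correlated from -0.22 to -0.12 on D0 and from -0.17 to 0.46 on D28. Differently numbered ones of D28 correlated from -0.40 to 0.42. The D28 pair at 0.46 also shared a slide, so these values cannot settle whether numbers paired the rats of D28. With the replicate block 3 genes passed on D0 (Gsta3 was lost), 1 on D28 and 11 over both days (Gstm2 was gained, -0.45), 0 for the difference and 0 between controls. Counts over all genes tested are given for the settings other than leaving out 1 array. They ranged from 535 to 1373 on D0 (657 as reported), from 68 to 635 on D28 (303) and from 1402 to 2397 over both days (1509). Signal over background limited Gsta2, Gclm and the second Slc7a11 probe.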
